A study of Oryza sativa with 8 samples.

Results

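The libraries labelled OsglHAT1-OE, described by their labels as transgenic rice (Oryza sativa) in the cultivar Nipponbare, were compared with libraries of Nipponbare itself. The comparison took 5 of the 8 libraries of the series, 3 labelled OsglHAT1-OE and 2 labelled Nipponbare, chosen by those labels. All came from shoot apical meristem, the dome of dividing cells at the tip of the shoot that forms leaves and later the panicle, and all were single-end RNA sequencing libraries of total RNA. The other 3 libraries came from GW6a-4.6, a chromosome segment substitution line with a Kasalath fragment in Nipponbare, and their values are given only where a result calls for them. The promoter of the transgene, the number of independent insertions, the stage of the plants and whether libraries came from separate plants are not given in the sources used here. The p-values therefore measure only the spread between these libraries, which may be technical. Each locus was represented by 1 transcript model, and 30610 of 36819 loci passed the filter, which asked for 2 libraries at 1 or above, and were tested.

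OsglHAT1 is the gene behind the grain weight locus GW6a and encodes a protein of the GCN5-related N-acetyltransferase (GNAT) family with histone acetyltransferase activity. Acetyl groups on histone tails loosen the hold of nucleosomes on DNA and are generally found at active genes, while deacetylases remove them. In the shoot apex, KNOX homeobox genes and cytokinin keep cells of the meristem undifferentiated, and auxin marks where new organs form. Cells leaving the meristem divide, make new histones and ribosomes, and loosen their walls to grow.

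The 5 libraries held 5207710 to 7667853 reads, and 3 reads corresponded to a rescaled value of 0.378 to 0.55. On the same reading, each read was counted at 2.67 to 2.69 transcript models on average, except in replicate 3 of OsglHAT1-OE, where it was 2.41. The values of replicate 3 were lower than those of its group by a factor that moved with level, a median ratio of 0.815 for loci at 1 to 5 and of 0.897 for loci above 500. Unless given on the deposited scale, values below were divided by a median-ratio factor per library, 1.03 to 1.05 in 4 libraries and 0.887 in replicate 3. Because it is constant within a library, such a factor does not remove a difference that moves with level. Across loci, log2 values correlated at 0.989 to 0.991 within groups and at 0.889 to 0.892 between them. Values are not divided by transcript length, so levels are compared between groups and not between genes.

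The OsglHAT1 transcript (Os06t0650300-00, chromosome 6) was the first gene examined, since it checks the label. It stood at 1.41 and 2.2 in Nipponbare, from 10 and 12 reads, and at 12.8, 8.56 and 11.3 in OsglHAT1-OE, from 90, 68 and 68 reads. All 3 libraries labelled OsglHAT1-OE lay above both controls. The means were 1.80 ± 0.561 (SD, n = 2) and 10.9 ± 2.15 (n = 3), a 6.03-fold rise (log2 change 2.08, SE 0.25, limma adjusted p = 2.48e-08). The two-sided exact permutation test over the 5 libraries gave p = 0.1, the smallest that its 10 splits allow. On the deposited scale the transcript stood in the 3 GW6a-4.6 libraries at 2642, 2573 and 2913, far above the 8.87 to 13.2 of those labelled OsglHAT1-OE. The higher level thus stands in the libraries labelled as the substitution line and not in those labelled as the overexpressor. Whether the labels or columns of the GW6a-4.6 and OsglHAT1-OE libraries were exchanged cannot be told from the files, and if they were, every result below describes the substitution line. OsglHAT1-OE is therefore used below only as the label of these libraries, and no difference is tied to the amount of OsglHAT1. Among the 25 tested loci on either side of OsglHAT1 in identifier order, 10 of 50 changed by a log2 change of 1 or more (20%), where 21.6% of all tested loci did.

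**Figure D1:**
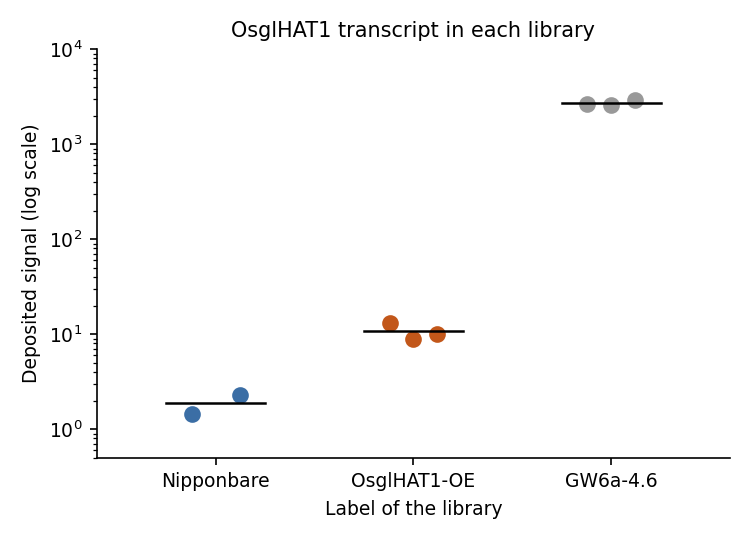
Deposited signal of the OsglHAT1 transcript in each of the 8 libraries by label, on a log axis, with a bar at the mean of each group. The 3 OsglHAT1-OE libraries lie at 8.87 to 13.2, above the 2 Nipponbare libraries and below the 3 GW6a-4.6 libraries at 2573 to 2913.

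Other members of the acetylation machinery split. Of 14 acetyltransferase loci tested, OsglHAT1 included, 5 rose and 3 fell at an adjusted p under 0.05. Over all tested loci, 29.6% were called higher and 29.6% lower, so these shares lie near the background. The catalytic subunit of the type B histone acetyltransferase, which acetylates newly made histone H4 before it enters chromatin (Os09t0347800-01), stood at 41.7 and 33.7 in Nipponbare and at 74.8, 79.3 and 79.9 in OsglHAT1-OE. It rose 2.07-fold (log2 change 1.04, SE 0.10, limma adjusted p = 2.19e-10), with no overlap between groups, which the naming rule asked for. A HOOKLESS 1 homologue (Os07t0116600-00) rose from 1.69 and 0.734 to 6.82, 4.28 and 8.64, and an N-acetyltransferase on chromosome 3 (Os03t0151600-02) rose 2.59-fold. The fifth locus that rose, the GNAT domain locus Os04t0691700-01, changed by 1.16-fold and did not pass without replicate 1 or 2 of Nipponbare or 3 of OsglHAT1-OE (adjusted p = 0.0656, 0.108 and 0.061). The loci that fell were the N-acetyltransferases Os03t0794200-00 (19.8 and 18.5 to 2.7, 2.52 and 3.16) and Os03t0794400-00 (adjusted p = 0.0876 without Nipponbare replicate 1), and a histone acetyltransferase (Os02t0137500-01) that fell 1.17-fold. Histone deacetylases split as well, 3 of 15 rising and 4 falling. A class I deacetylase annotated with reproductive development (Os02t0214900-01) fell 3.49-fold, from 17.7 and 20.2 to 6.54, 5.29 and 4.49. The adjacent deacetylase locus Os02t0215200-02 fell 3.63-fold, from 33.1 and 32.3 to 9.67, 9.07 and 8.31. The NAD-dependent deacetylase Os12t0179800-01 fell 2.71-fold, and the nucleolar HD2 deacetylase Os05t0597100-01 fell 1.1-fold, a call lost when any 1 of 4 of the libraries was left out (adjusted p up to 0.176). The deacetylases that rose were Os05t0203912-00 at 2.54-fold, Os08t0344100-01 at 1.55-fold and Os06t0583400-01, linked to seedling root growth by its annotation, at 1.19-fold. Without scaling between libraries, Os06t0583400-01 and the acetyltransferase Os04t0691700-01 were not called (adjusted p = 0.117 and 0.337). Members of both lists with small counts were named after their values had been seen.

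Over the whole transcriptome the libraries labelled OsglHAT1-OE and the controls differed at 18123 loci (59.2%). Of the tested loci, 9071 were higher (29.6%) and 9052 lower (29.6%) in OsglHAT1-OE, and these shares are the background for the family counts below. A log2 change of 1 or more was called at 6619 loci (21.6%), 3093 higher (10.1%) and 3526 lower (11.5%). Among large changes falls were more frequent, since 21 loci rose and 41 fell by a model log2 change of 5 or more, and 144 rose and 325 fell by 3 or more. The share of loci with a called log2 change of 1 or more was 29.3% for loci with a mean of 2 to 10 and 13.6% for those above 200, while the median SE was 0.27 and 0.06. The median log2 change over all tested loci was -0.0072.

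**Figure D2:**
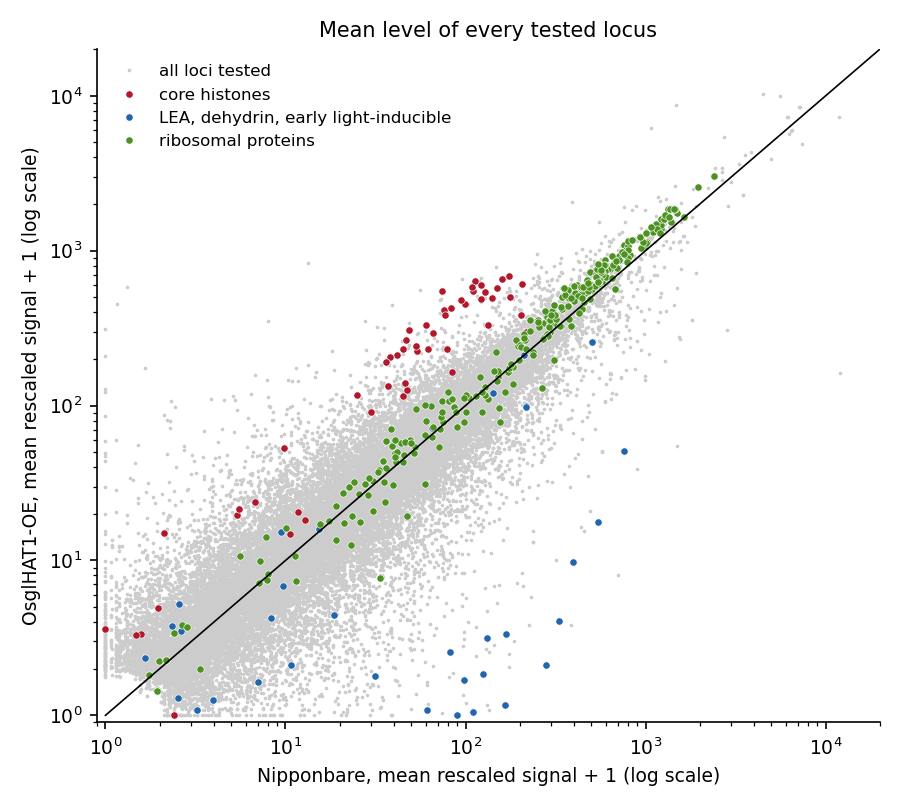
Mean rescaled signal plus 1 of each tested locus in Nipponbare (x axis) and OsglHAT1-OE (y axis), both on log axes, with the line of equality. All but 2 core histones (red) were called higher and lie above the line, and most LEA and dehydrin loci (blue) lie far below it, with ribosomal proteins (green) near it.

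Among the annotated loci with the largest log2 rises, several code for enzymes. A transferase family locus (Os12t0459100-00) had no read in either Nipponbare library and 82.6, 89.4 and 82.9 in OsglHAT1-OE, at least 349.5-fold higher against 3 reads over the Nipponbare group. The polygalacturonase beta subunit Os10t0409400-01, of a protein bound to a pectin-cutting enzyme, went from 0.281 and 0, 2 reads in all, to 57.1, 55.9 and 64.8, 421 times the control mean (95% counting interval 102 to 3042). At both loci the control libraries held next to no reads and the 3 libraries labelled OsglHAT1-OE lay close together. The terpenoid synthase Os03t0347900-01 rose 66.7-fold, from 1.13 and 1.28 to 75.8, 82.6 and 82.6 (log2 change 5.20, SE 0.16, limma adjusted p = 1.03e-22). Its family leaned the other way, since 17 of 37 tested terpenoid loci fell (45.9%) and 4 rose (10.8%). A LSD1-type zinc finger locus (Os08t0130100-01) went from 0.281 and 0 to 29.3, 28.2 and 24.9. The cytochrome P450 genes Os08t0547300-01 and Os03t0134500-00, both of the CYP78A family that promotes organ growth, rose 27.1-fold and 42.9-fold. The first held 7.32 and 4.22 in Nipponbare and 159, 159 and 150.0 in OsglHAT1-OE. Another P450 (Os09t0275400-01) rose 89.6-fold, and a divalent ion symporter locus (Os10t0547500-01) 30.2-fold. Because the naming rule asked for groups that do not overlap, the separation of these genes is part of how they were chosen; over all tested loci, the groups did not overlap with OsglHAT1-OE higher at 35.5% and lower at 35.8%.

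On the falling side, the ribonuclease T2 transcript Os09t0537700-02 is of an RNA-degrading secreted enzyme family. It showed the largest loss in rescaled value among called loci with an informative annotation. It held 12191 and 11862 in Nipponbare and 147, 171 and 168 in OsglHAT1-OE, a 74.2-fold fall (log2 change -6.21, SE 0.06, limma adjusted p = 7e-35). An achaete-scute related transcription factor (Os01t0952800-01), of a basic helix-loop-helix type, fell from 383 and 384 to 3.13, 3.02 and 2.33, which was 136-fold (log2 change -6.66, SE 0.15, limma adjusted p = 3.17e-26). All 3 OsglHAT1-OE values of this gene lay far below both controls, and lack of overlap was part of how it was chosen. A subunit of the mitochondrial inner membrane translocase (Os03t0305600-01) fell 504-fold, from 104 and 95.4 to 0.426, 0 and 0.166. None of these 3 OsglHAT1-OE values lay above the floor of 3 reads, so the size of that fold is imprecise. A metallothionein-like protein of type 1 (Os12t0570700-01), a small metal-binding protein, fell 99.3-fold, from 713 and 683 to 6.54, 5.92 and 8.64. A SKIP-interacting protein (Os10t0315400-01) went from 94.2 and 120.1 to 0, 0.252 and 0, with 2 reads over the 3 OsglHAT1-OE libraries. S-adenosylmethionine decarboxylase (Os02t0611200-01), a control step of polyamine synthesis, fell 5.09-fold from 1838 and 1798 to 349, 337 and 385.

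The 3 GW6a-4.6 libraries, which were not tested here against OsglHAT1-OE, give a further reading of these genes, on the deposited scale and against the same 2 Nipponbare libraries. Ribonuclease T2 (Os09t0537700-02) had a deposited mean of 12544 in Nipponbare, 159 in OsglHAT1-OE and 22.5 in GW6a-4.6. The achaete-scute related factor (Os01t0952800-01) had deposited means of 400.4, 2.81 and 5.64, and the metallothionein (Os12t0570700-01) of 728, 6.85 and 36.4. At each of these loci both labelled lines lay far below the shared controls. The same held in the upward direction for histone H2B.2 (Os08t0490900-00), at deposited means of 76.2, 538 and 373, and for OSH1 (Os03t0727000-01), at 31.7, 106 and 98. Because both lines are set against the same 2 control libraries, a deviation of those controls cannot be told apart from a change shared by the lines.

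Histone genes rose. Of 58 core histone loci, 55 were tested, 53 rose and 1 fell, with a median log2 change of 1.96. All 16 tested loci of histone H3 and all 10 of H4 rose, as did 15 of 16 of H2A and 12 of 13 of H2B, with class medians of 1.71 (H2A), 1.81 (H2B), 2.08 (H3) and 2.17 (H4). The H2B.2 locus Os08t0490900-00 stood at 80.5 and 65.7 in Nipponbare and at 563, 537 and 536 in OsglHAT1-OE, a 7.46-fold rise (log2 change 2.89, SE 0.07, limma adjusted p = 1.14e-24). The H3 locus Os06t0159450-00 rose 6.48-fold, from 50.9 and 44.4 to 314, 302 and 310.1. The summed value of all tested core histones was 4362 and 4143 in Nipponbare and 15767, 15020.1 and 15409.8 in OsglHAT1-OE. The H2B locus that fell (Os09t0570850-00) had few reads, 1.69 and 1.1 in Nipponbare and none in OsglHAT1-OE, and it did not pass the filter with either Nipponbare library left out. The H2A locus not called (Os08t0289266-00) lay at 0.704 to 1.83 in all 5 libraries. Both were named after their values had been seen. Core histone genes are near-identical copies and reads appear to have been counted at several models. Their loci may therefore share reads and do not count as separate observations.

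Linker histones, which bind the DNA between nucleosomes, moved the same way at 4 of 4 loci. Histone H1 at Os03t0799000-01 rose 6.95-fold, from 99.9 and 89.9 to 702, 674 and 602 (log2 change 2.78, SE 0.07, limma adjusted p = 9.62e-25). The H1 locus Os04t0253000-01 rose 4.37-fold, and the neighbouring H1 loci Os07t0184800-01 and Os07t0184850-00 rose 3.89-fold and 4.29-fold. No OsglHAT1-OE library overlapped a control at any of these loci. Over all tested loci, 35.5% were higher in OsglHAT1-OE without overlap.

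Of 30 loci of DNA methylation and small RNA pathways, 12 rose (40%) and 5 fell (16.7%), against 29.6% each way over all tested loci. The MET1 cytosine-5 DNA methyltransferase Os07t0182900-01, which copies CG methylation onto new strands, stood at 26.2 and 24.6 in Nipponbare and at 98.9, 109.6 and 98 in OsglHAT1-OE, and rose 4.03-fold (log2 change 1.97, SE 0.10, limma adjusted p = 1.8e-17). Another locus (Os10t0104900-01), by its annotation a DNA (cytosine-5)-methyltransferase 1, rose 3.45-fold, from 40.3 and 34.5 to 132, 125 and 129. Which type of methylation it acts on was not tested. Argonaute 7, the partner of miR390 in making tasiRNAs in Arabidopsis (Os03t0449200-00), rose 5.41-fold, from 4.22 and 5.69 to 27.6, 28.6 and 24.3. The groups did not overlap at these 3 loci, which was part of how they were chosen. In the other direction, argonaute 18 (Os07t0471300-01), known for antiviral roles in rice, fell 4.29-fold, from 77.7 and 86 to 18.8, 19.1 and 19.3. Dicer homologue 3a (Os08t0148600-01) fell 2.65-fold, and the Dicer homologue 2b loci Os09t0315050-00 and Os09t0315100-01, which carry the same annotation and may share reads, fell 3.64-fold and 3.64-fold. The fifth locus that fell was a PAZ domain protein (Os04t0615700-01), at 1.62-fold. Among histone methylation loci (SET and jumonji domains), 14 of 44 rose (31.8%) and 5 fell (11.4%), against 29.6% each way over all tested loci. The falls were 1.31- to 1.74-fold at Os03t0307800-01, Os04t0423600-01, Os05t0302300-01, Os01t0546900-01 and Os10t0577600-01. Of these, Os01t0546900-01 did not pass without replicate 2 of Nipponbare or 3 of OsglHAT1-OE (adjusted p = 0.095 and 0.138). The SET domain loci Os01t0927000-01 and Os09t0556700-01 rose 2.88-fold and 2.84-fold, and the jumonji locus Os02t0828900-01 rose 3.32-fold.

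Cell division genes rose more often than they fell. The list held 125 tested loci of the cell cycle and of replication, of which 76 rose (60.8%) and 20 fell, with a median log2 change of 0.66. Cyclin-A3-1 (Os03t0607600-00), a cyclin of S phase entry, stood at 8.73 and 5.87 and then at 54, 52.6 and 50.3, a 7.17-fold rise (log2 change 2.71, SE 0.15, limma adjusted p = 4.27e-16). Cyclin-D1-1 (Os06t0236600-00), of the G1 class, rose from 0.563 and 1.83 to 14.8, 9.82 and 8.97, and MCM10 (Os09t0539400-00), which helps replication forks start, from 3.38 and 1.83 to 16.9, 12.8 and 16.9. Not all cyclins followed: a cyclin D domain locus (Os03t0203800-01) fell 2.71-fold from 102 and 100.1 to 41.2, 34 and 36.9. Cyclin-T1-1 (Os02t0133000-00), which acts in transcription rather than in division, fell 2.54-fold, and the cyclin-related locus Os04t0552300-01 fell 3.44-fold. Of 83 kinesin and tubulin loci, 61 rose (73.5%) and 5 fell. The kinesin Os12t0590500-00 rose 3.72-fold, from 39.1 and 40.7 to 138, 158 and 149, and the beta-tubulin locus Os02t0834300-01 rose 4.06-fold. The falls were at the kinesins Os06t0554700-01 (3.48-fold) and Os03t0773600-01 (1.29-fold), the alpha-tubulin Os11t0549900-01 (3.26-fold) and the beta-tubulin loci Os03t0831400-01 and Os06t0495700-00 (1.93-fold and 1.14-fold). Each of these beta-tubulin calls was lost when any 1 of 4 of the libraries was left out, with adjusted p up to 0.239 and 0.14.

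**Figure D3:**
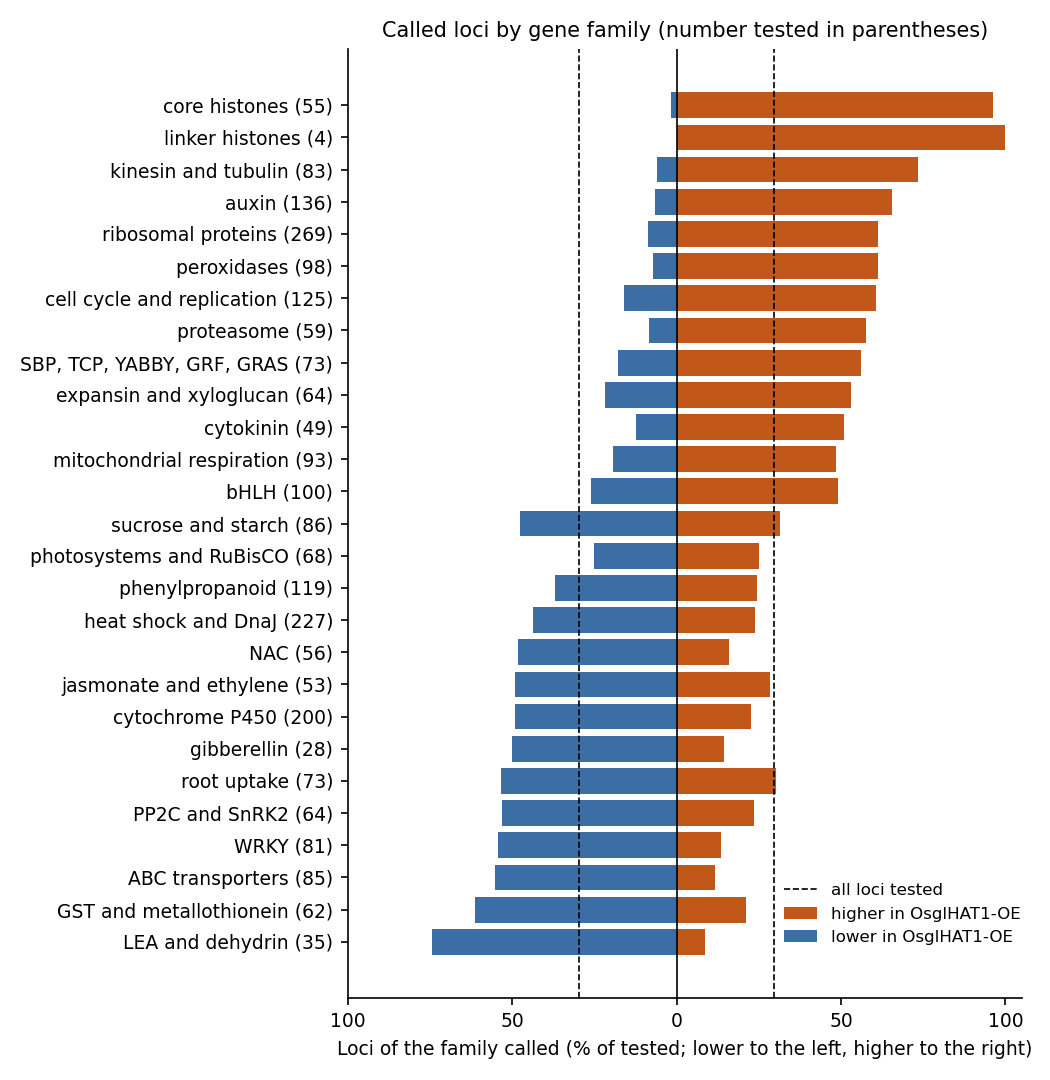
Percentage of the tested loci of each family called higher (orange, right) or lower (blue, left) in OsglHAT1-OE, with the number tested in parentheses and dashed lines at 29.6% each way for all tested loci. Core histones reach 96.4% higher, and LEA and dehydrin loci reach 74.3% lower.

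Wall-loosening proteins, which let cells expand, moved upward on balance. Of 64 expansin and xyloglucan-modifying loci, 34 rose (53.1%) and 14 fell (21.9%), with a median log2 change of 0.57. OsEXPA4 (Os05t0477600-01), an alpha-expansin, stood at 15.2 and 18.9 in Nipponbare and at 237, 218 and 222 in OsglHAT1-OE, 13.2-fold higher (log2 change 3.66, SE 0.09, limma adjusted p = 9.41e-25). The beta-expansin Os02t0658800-01 and expansin-B7 (Os03t0102700-01) rose 13-fold and 15-fold. The xyloglucan endotransglucosylase Os04t0604300-01 went the other way, 20.7-fold down from 43.8 and 43.1 to 2.42, 1.89 and 1.99. Class III peroxidases, which stiffen or loosen walls through reactive oxygen, rose at 60 of 98 loci (61.2%) and fell at 7. Among them, Os03t0235000-01 rose 7.8-fold, peroxidase 52 (Os06t0547100-00) 9.26-fold and Os04t0688500-01 6.66-fold, while Os01t0787000-01 fell 15.7-fold from 19 and 19.1 to 1.42, 0.881 and 1.33. Pectin-modifying loci rose 37 times (46.8%) and fell 13 times (16.5%) among 79.

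Enzymes that build walls did not share that balance. Of 72 cellulose synthase and structural protein loci, 29 rose (40.3%) and 24 fell (33.3%), against 29.6% each way over all tested loci. The median log2 change of -0.01 turned to 0.07 under quantile normalization. Cellulose synthase-8 (Os07t0252400-01) fell 3.44-fold, from 882 and 899 to 253, 256 and 269 (log2 change -1.78, SE 0.06, limma adjusted p = 1.59e-21), and another cellulose synthase family locus (Os08t0160500-01) fell 2.26-fold. The APG-like proline-rich protein Os03t0683800-01 rose 2.76-fold. Phenylpropanoid loci, which make lignin monomers and flavonoids, rose 29 times (24.4%) and fell 44 times (37%) among 119. The 4-coumarate-CoA ligase Os08t0448000-01, at the branch point to both product groups, fell 11.4-fold from 59.1 and 42.4 to 4.41, 3.78 and 5.15, and a chalcone isomerase (Os06t0203600-01), an enzyme of the flavonoid branch, fell 8.25-fold.

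Protein synthesis and turnover genes rose at many loci by small amounts. Of 269 ribosomal protein loci, 165 rose (61.3%) and 23 fell, with a median log2 change of 0.26, and the changes of the 165 were below a log2 change of 1. Without scaling between libraries, 116 rose and 26 fell, with a median of 0.18. The summed ribosomal protein value was 106259 and 102827 in Nipponbare and 126634, 126092 and 128705 in OsglHAT1-OE. The S26e locus Os03t0816200-01 ran against the family, 4.88-fold down from 31.8 and 33.4 to 6.25, 6.8 and 6.98. Among 59 proteasome subunits there were 34 rises and 5 falls (median 0.23); without scaling between libraries, 20 rose. Of the subunits that rose, the alpha type 5 locus Os11t0615700-01 changed from 116 and 110.2 to 186, 192 and 196. The subunits that fell were Os07t0614100-01, Os08t0529100-01, Os06t0699900-01, Os06t0607800-01 and Os02t0199900-01, the first by 1.71-fold; leaving out single libraries left 2 to 5 of these calls. Respiratory chain loci numbered 93, with 45 rises and 18 falls, and a cytochrome c locus (Os04t0261400-01) rose 4.31-fold. Of 33 ribosome biogenesis factors, 14 fell and 4 rose, 2 of the latter kind without scaling.

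Splicing factors as a family split, 21 rising (36.2%) and 17 falling (29.3%) of 58, against 29.6% each way over all tested loci. Without scaling 9 rose and 18 fell. SR proteins, which direct splice site choice, gave the largest changes of the list. The SF2 homologue Os01t0316600-01 held 91.9 and 97.4 in Nipponbare and 2.56, 4.79 and 4.82 in OsglHAT1-OE, 23.3-fold lower (log2 change -4.28, SE 0.20, limma adjusted p = 3.54e-18). SCL30a (Os07t0633200-02) fell 12.8-fold, from 65.7 and 57 to 3.13, 4.41 and 6.81, and an SC35 homologue (Os07t0623300-01) fell 2.11-fold. The SR-related locus Os01t0779800-01 rose 5.13-fold, from 7.32 and 11.7 to 50.6, 43.8 and 52.2. Since 1 transcript model stood for each locus, these values do not tell isoforms apart.

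Auxin synthesis, transport and response genes rose far more often than they fell. Of 136 loci, 89 rose (65.4%) and 9 fell, with a median log2 change of 0.78. GH3.5 (Os05t0500900-01), an enzyme that conjugates auxin to amino acids, stood at 4.93 and 5.5 in Nipponbare and at 83.6, 81.3 and 82.2 in OsglHAT1-OE, 15.8-fold higher (log2 change 3.75, SE 0.13, limma adjusted p = 2e-21). The repressor IAA12 (Os02t0805100-01) rose from 0.563 and 0.734 to 11.1, 7.3 and 13.6. An auxin-induced beta-glucosidase (Os11t0673200-01) rose 14.6-fold. The falls with the largest size were SAUR genes, a family of rapid auxin-response transcripts, with Os02t0643800-01 falling 8.26-fold, Os08t0452500-01 6.22-fold and Os06t0714300-01 3.79-fold.

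Cytokinin loci rose 25 times (51%) and fell 6 times (12.2%) among 49. A response regulator receiver locus (Os09t0532400-01) stood at 107 and 114 in Nipponbare and at 609, 631 and 678 in OsglHAT1-OE, a 5.78-fold rise (log2 change 2.52, SE 0.07, limma adjusted p = 1.91e-24). The A-type response regulator Os04t0673300-01, induced by cytokinin and damping its signal, rose 4.47-fold, and a LOG-type activating enzyme (Os02t0628000-00) rose 5.72-fold. Brassinosteroid and strigolactone loci rose 18 times (62.1%) and fell 9 times (31%) among 29, against 29.6% each way over all tested loci. Without scaling, 11 rose. The GRAS protein Os06t0127800-01, annotated to brassinosteroid signalling, rose 2.87-fold.

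Gibberellin, jasmonate and ethylene genes leaned the other way. Of 28 gibberellin loci, 14 fell and 4 rose. A locus annotated as ent-kaurene synthase 1A (Os02t0570400-01) fell 2.68-fold, from 92.5 and 94.1 to 33.1, 33.4 and 38.1. One annotated as ent-kaurene oxidase 1 (Os06t0569500-01) fell 2.67-fold. Both were matched by annotation text, and whether they act in gibberellin synthesis was not tested. The GAST1 homologue Os03t0760800-01 fell 5.45-fold, from 305 and 314 to 57.4, 63 and 49.8 (log2 change -2.43, SE 0.09, limma adjusted p = 3.77e-21). The loci that rose were Os06t0266800-01 (2.83-fold), Os02t0776900-01, annotated as an activator of stem elongation (2.18-fold), Os05t0376800-01 (2.11-fold) and Os01t0571100-01 (1.46-fold; adjusted p = 0.0895 without Nipponbare replicate 1 and 0.0684 without scaling). Jasmonate and ethylene loci fell 26 times (49.1%) and rose 15 times (28.3%) among 53, against 29.6% each way over all tested loci. ZIM and tify proteins, the JAZ repressors of jasmonate signalling that jasmonate itself induces, were the largest falls: Os03t0180800-01 went from 35.5 and 27.9 to 0.569, 0.756 and 0.332 and Os03t0181100-01 from 78 and 75.6 to 3.98, 3.65 and 5.32. The ethylene-forming ACC oxidase 1 (Os01t0580500-01) and an ETHYLENE-INSENSITIVE3-like factor (Os03t0324300-04) rose 4.19-fold and 3.29-fold.

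Regulators of the shoot and inflorescence meristem, which also check the labelled tissue, were detected and mostly higher. Of 16 loci taken by identifier, 11 were tested and 10 rose, with a median log2 change of 0.998. OSH1 (Os03t0727000-01), the KNOX gene that maintains the rice shoot meristem, stood at 32.1 and 28.6 in Nipponbare and at 109, 105 and 108 in OsglHAT1-OE, 3.53-fold higher (log2 change 1.79, SE 0.09, limma adjusted p = 6.88e-17). OSH15 (Os07t0129700-01) rose 2.06-fold, OSH3 (Os03t0727200-00) 2.16-fold and OSH43 (Os03t0771500-01) 2.11-fold, while OSH71 (Os05t0129700-01) was not called at 86.4 and 81.8 against 90.5, 97.6 and 86.7. IPA1 (Os08t0509600-01), an SBP factor of panicle branching and tillering, rose 2.66-fold, from 28.1 and 33.4 to 89.6, 91 and 64.6. FZP (Os07t0669500-01), which sets spikelet identity, rose 2.19-fold, from 27.3 and 27.1 to 56.4, 51.1 and 71.6. TAW1 (Os10t0478000-01), which delays spikelet formation, rose 1.64-fold, APO2 (Os04t0598300-00) 1.86-fold and the receptor kinase FON1 (Os06t0717200-01) 1.25-fold. WOX4 (Os04t0649400-00) was near the floor, from 0 and 0.367 to 1.14, 1.39 and 1.5. Without Nipponbare replicate 1 the call of WOX4 was lost (adjusted p = 0.146), and without Nipponbare replicate 2 those of OSH43 and APO2 (adjusted p = 0.0586 and 0.0818). FON1 was not called without scaling between libraries (adjusted p = 0.119). The stem cell and axillary meristem genes TAB1, FCP1, MOC1, LAX1 and APO1 did not pass the filter in these libraries. In bulk tissue, more cells of a type and more RNA per cell cannot be told apart, here or for any family described.

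Growth-associated transcription factors of the SBP, TCP, YABBY, GRF and GRAS families rose 41 times and fell 13 times among 73. Growth-regulating factors 7 (Os12t0484900-01) and 3 (Os03t0674700-01), activators of leaf cell proliferation, rose 4.31-fold and 3.64-fold, the former from 32.9 and 33 to 138, 149 and 138. A TCP-domain gene (Os01t0246200-00) ran opposite, from 160.2 and 125 to 6.68, 6.3 and 4.65, 24.2-fold lower (log2 change -4.38, SE 0.16, limma adjusted p = 1.01e-20). The scarecrow-like 9 locus Os01t0842200-01 fell 3.25-fold. Of 100 bHLH loci, 49 rose (49%) and 26 fell (26%), against 29.6% each way over all tested loci, so the share of falls lies near the background. The bHLH locus Os04t0301500-01 fell 275-fold, from 105 and 85.5 to 0.284, 0.756 and 0, and Os03t0741100-01 and Os03t0379300-01 fell 39.2-fold and 28.1-fold. In contrast, Os04t0489600-02 rose 29.8-fold, from 0.563 and 1.1 to 26.2, 27.8 and 20.4. HOX22 (Os04t0541700-01), a stress-linked homeodomain-leucine zipper gene, fell 17.5-fold.

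Floral organ and flowering time genes were mostly near the floor or lower. Of 16 floral loci, 9 did not pass the filter, among them OsMADS14, OsMADS15 and OsMADS34, which mark the floral transition. Of the 7 tested, 2 rose and 3 fell. DL (Os03t0215200-00), which specifies carpels and forms the leaf midrib, rose 3.79-fold, from 5.35 and 6.6 to 26.4, 19.1 and 22.4, and OsMADS8 (Os09t0507200-01) was called higher from 2 Nipponbare reads, at 0.281 and 0 against 1.42, 0.504 and 1.16, a call lost without either Nipponbare library (adjusted p = 0.0756 and 0.27). The petal and stamen genes OsMADS16 (Os06t0712700-01) and OsMADS2 (Os01t0883100-01) fell 2.3-fold and 2.1-fold, and OsMADS18 (Os07t0605200-01) fell 1.62-fold. Of 9 tested flowering time and clock loci, 5 fell and the other 4 did not pass the test. Hd1 (Os06t0275000-01), the rice CONSTANS gene, fell 2.94-fold from 9.85 and 11.9 to 3.27, 3.53 and 4.32, OsCOP1 (Os02t0771100-01) 1.53-fold, OsMADS56 (Os10t0536100-01) 1.34-fold (adjusted p = 0.0733 without Nipponbare replicate 1) and the clock genes OsGI (Os01t0182600-03) and OsCCA1 (Os08t0157600-01) 1.3-fold and 1.23-fold.

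Known grain size and yield genes rose at 14 of 19 tested loci, OsglHAT1 among them, and fell at 2. GIF1 (Os04t0413500-01), a cell wall invertase that unloads sucrose into the grain, stood at 2.81 and 2.93 in Nipponbare and at 121, 102 and 107 in OsglHAT1-OE, 38.3-fold higher (log2 change 4.84, SE 0.13, limma adjusted p = 7.25e-24). D2 (Os01t0197100-00), an enzyme of brassinosteroid synthesis, rose 5.35-fold and the receptor of that hormone, D61 (Os01t0718300-02), 2.08-fold, from 193 and 205 to 415, 385 and 439. BG1 (Os03t0175800-01), a regulator of auxin transport, rose 4.39-fold, the carboxypeptidase GS5 (Os05t0158500-01) 3.16-fold and the calmodulin-binding GW5 (Os05t0187500-00) 2.79-fold. GL7 (Os07t0603300-01), which elongates grain cells, rose 2.38-fold from 141 and 138 to 325, 320.4 and 349.8, and the alpha-tubulin SRS5 (Os11t0247300-01) rose 1.81-fold. DEP1 (Os09t0441900-01), OsGRF4 (Os02t0701300-01), GW8 (Os08t0531600-01), GW2 (Os02t0244100-01) and GL3.1 (Os03t0646900-01) rose 1.2- to 2.15-fold, the call of GW2 being lost without either Nipponbare library or OsglHAT1-OE replicate 2 (adjusted p = 0.122, 0.0581 and 0.0505). Without scaling between libraries, GW2 and GL3.1 were not called (adjusted p = 0.275 and 0.167). Gn1a (Os01t0197700-01), the cytokinin oxidase of grain number, fell 5.3-fold from 9.43 and 10.3 to 1.99, 1.76 and 1.83, and FLO2 (Os04t0645100-02), a regulator of starch synthesis genes, fell 4.02-fold from 619.6 and 667 to 164, 159 and 158. GS3 (Os03t0407400-00), SRS3 (Os05t0154700-01) and D1 (Os05t0333200-00) were not called, with log2 changes of -0.0026, -0.10 and -0.16.

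**Figure D4:**
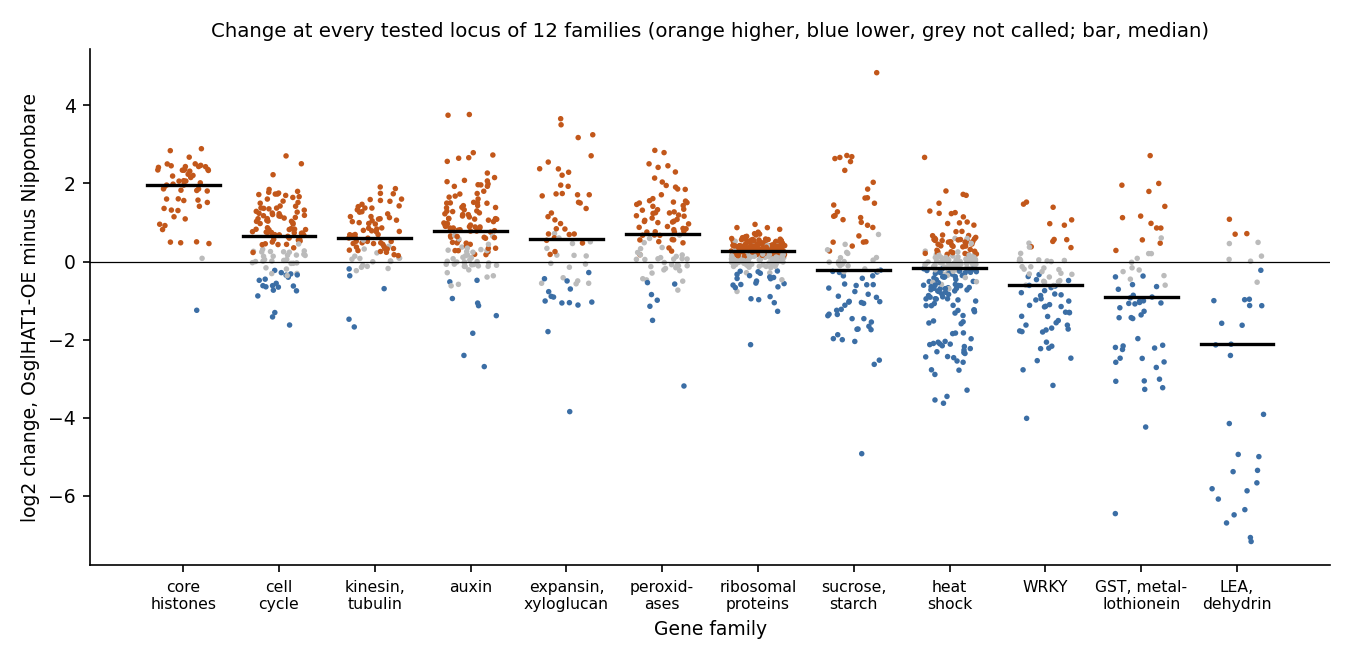
Log2 change (OsglHAT1-OE minus Nipponbare, y axis) of each tested locus in 12 gene families, coloured by call, with a bar at the family median. Medians run from 1.96 for core histones to -2.12 for LEA and dehydrin loci, and single loci of most families lie on both sides of 0.

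Starch and sucrose metabolism shifted between enzymes. Of 86 loci, 41 fell (47.7%) and 27 rose (31.4%), against 29.6% each way over all tested loci, so the share of rises lies near the background. ADP-glucose pyrophosphorylase (Os05t0580000-01), the committed step of starch synthesis, was not matched by the list but was among the largest falls in value. It held 2842 and 2860.2 in Nipponbare and 306, 310.3 and 309 in OsglHAT1-OE, 9.24-fold lower (log2 change -3.20, SE 0.06, limma adjusted p = 1.59e-28). Starch-branching enzyme I (Os06t0726400-01), which adds branch points to starch, fell 5.78-fold, from 1507 and 1589 to 261, 267 and 275. The starch breakdown enzyme beta-amylase (Os03t0141200-01) fell 32.1-fold, from 594 and 511 to 18.1, 15.9 and 17.8, and a glucan phosphorylase outside the list (Os03t0758100-01) fell 2.66-fold. Libraries within each group differed by little at all these loci beside the gap between the groups. Sucrose synthase 2 (Os03t0401300-01), which splits sucrose for growth, rose instead, from 1526 and 1439 to 8495, 8393 and 9372, a 5.91-fold rise (log2 change 2.56, SE 0.06, limma adjusted p = 4.09e-25). Its gain in rescaled value was the largest among called loci with an informative annotation. The neighbouring identifier Os03t0401333-00 also gained in value and may share its reads. The alpha-amylase Os02t0765600-01 rose 9.29-fold, from 2.25 and 1.83 to 20.2, 19.1 and 17.6. A sucrose-phosphate synthase (Os11t0236100-01) fell 7.1-fold, and, among sugar transporters counted in another list, a hexose transporter (Os03t0218400-01) fell 13.3-fold, from 402 and 356 to 24.7, 24.7 and 36.4. A MtN3 sugar transporter (Os02t0513100-01) fell 28.6-fold, while another (Os11t0508600-01) rose 11.2-fold.

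**Figure D5:**
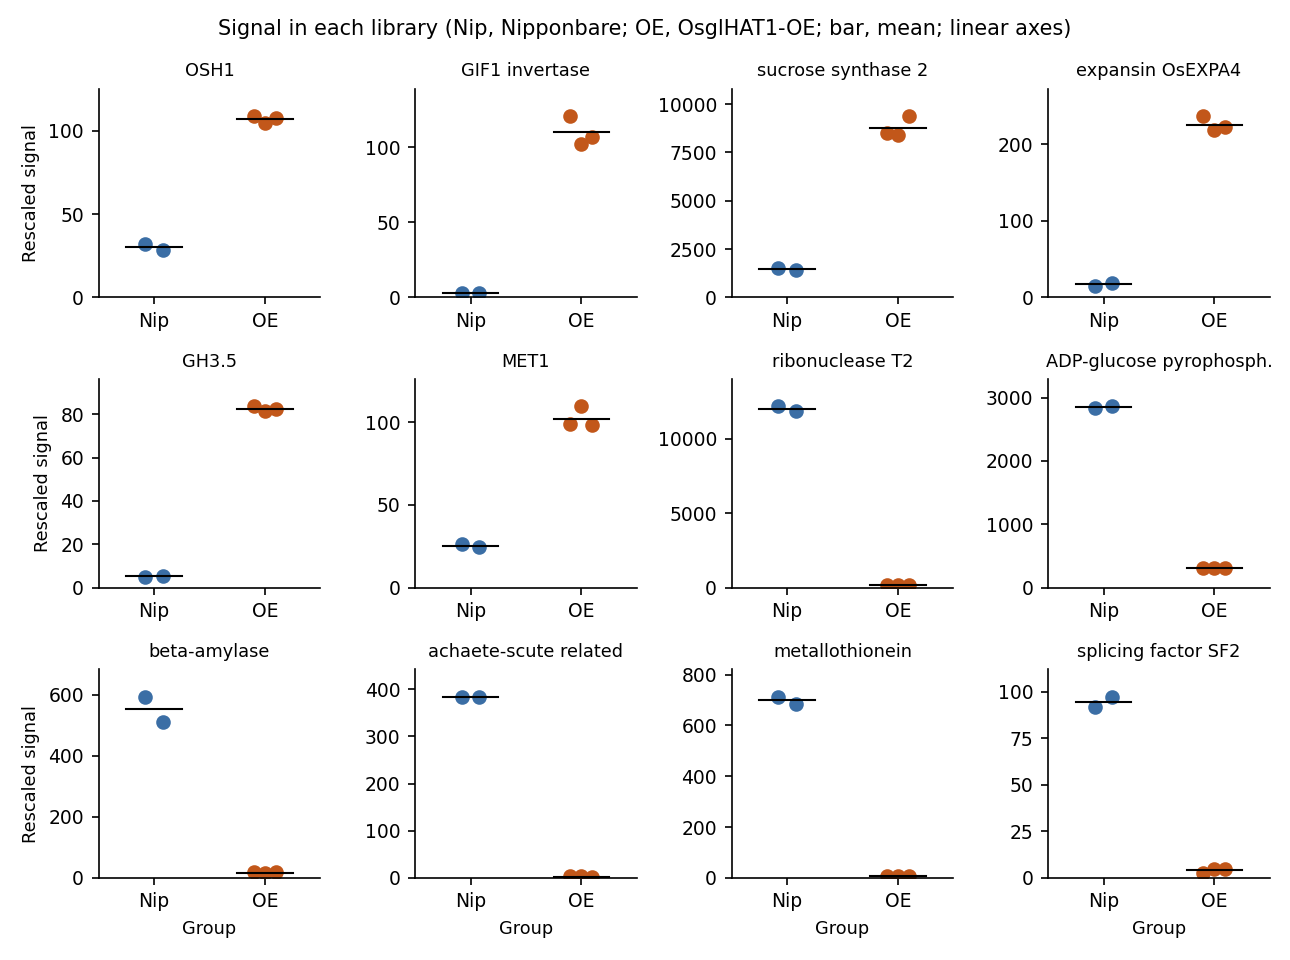
Rescaled signal of 12 named genes in each library, on linear axes that start at 0, with a bar at each group mean. The 2 Nipponbare (blue) and 3 OsglHAT1-OE (orange) libraries do not overlap in any panel. Lack of overlap was part of the naming rule for genes taken by log2 change.

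Desiccation and dormancy proteins fell furthest, with the lowest median of the 69 gene lists. Of 46 late embryogenesis abundant (LEA), dehydrin, seed maturation and early light-inducible loci, 35 were tested, 26 fell and 3 rose, with a median log2 change of -2.12. The ELIP transcript Os01t0246400-01, whose product protects chloroplasts in strong light, held 301 and 259.9 in Nipponbare and 1.56, 1.13 and 0.665 in OsglHAT1-OE, 250.4-fold lower (log2 change -7.07, SE 0.19, limma adjusted p = 8.39e-24). The LEA-like protein Os05t0542500-02 went from 165 and 165 to 0.142, 0 and 0.332, with 3 reads over the OsglHAT1-OE group. Dehydrin RAB 16B (Os11t0454200-01), induced by abscisic acid, fell 107-fold, and the seed maturation protein Os06t0341300-01 fell from 97.4 and 81.1 to no reads, at least 616-fold lower against 3 reads over the group. The summed value of the family was 5052 and 4542 in Nipponbare and 1021, 967 and 1001 in OsglHAT1-OE. The members that rose were Os12t0158900-00 at 2.7-fold, Os01t0691400-00 at 2.09-fold and Os05t0550250-00 at 1.7-fold, and were named after their values had been seen. The first did not pass without Nipponbare replicate 2 (adjusted p = 0.172), nor the second without 3 of the libraries (adjusted p up to 0.406). A dormancy-associated protein outside the list (Os11t0671000-01) went the other way, rising 5.28-fold from 379.6 and 401 to 2093, 2114 and 1974.

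Other stress and abscisic acid signalling genes fell more often than they rose. Protein phosphatases 2C, several of which repress abscisic acid signalling and are induced by it, and SnRK2 kinases fell 34 times and rose 15 times among 64. The PP2C locus Os06t0698300-01 fell 22.7-fold, from 133 and 121 to 2.84, 7.81 and 6.15. Heat shock and DnaJ loci fell 99 times and rose 54 times among 227; without scaling, 35 rose. The Hsp70 locus Os11t0703900-01, a general chaperone, fell 1.62-fold, from 12218 and 11388 to 7051, 7092 and 7749.5. Another Hsp70 (Os03t0276500-01) fell 5.53-fold, from 1588 and 1479.5 to 276, 265 and 290.1 (log2 change -2.46, SE 0.06, limma adjusted p = 7.31e-25), and Hsp101 (Os05t0519700-01), which resolves protein aggregates, fell 15.1-fold. The DnaJ locus Os06t0716100-01 rose 6.73-fold, from 13.8 and 15.4 to 98.9, 107 and 89.2. WRKY factors, regulators of defence, fell at 44 of 81 loci (54.3%) and rose at 11. WRKY28 (Os06t0649000-01) held 49.8 and 46.2 in Nipponbare and 2.84, 1.89 and 1.5 in OsglHAT1-OE, 23.1-fold lower. NAC factors fell 27 times (48.2%) and rose 9 times (16.1%) among 56, with Os11t0154500-01 falling 25-fold.

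Detoxification and transport families also fell more often than they rose. Glutathione S-transferases and metallothioneins fell at 38 of 62 loci (61.3%) and rose at 13. The glutathione S-transferase Os01t0692100-01 fell 25.1-fold from 70.7 and 63.8 to 3.55, 2.64 and 1.83, whereas GST 9 (Os03t0135200-01) rose 7.05-fold. The metallothionein RicMT (Os01t0974200-01) rose 1.97-fold, from 2876 and 2608 to 5469, 5226 and 5488. ABC transporters fell at 47 of 85 loci (55.3%) and rose at 10. The MDR-like transporter Os01t0695800-01 fell 35.2-fold, from 208 and 206 to 6.54, 6.8 and 4.32 (log2 change -4.94, SE 0.15, limma adjusted p = 1.26e-22), and the pleiotropic drug resistance transporter Os01t0609300-01 fell 8.92-fold. Cytochrome P450 loci fell 98 times and rose 45 times among 200. CYP94C20 (Os12t0150200-01), of a family that inactivates jasmonate in Arabidopsis, fell 49.1-fold, from 63.1 and 54.7 to 1.42, 1.51 and 0.665.

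Markers of other tissues were measured beside these families. Photosystem and RuBisCO loci, which mark green leaf, numbered 68, with 17 rises (25%) and 17 falls (25%), against 29.6% each way over all tested loci. Their summed value was 6588 and 6018 in Nipponbare and 6663, 6369 and 6370.1 in OsglHAT1-OE. Without scaling, 11 rose. PsbS (Os01t0869800-01), a protein of photoprotection, fell 6.56-fold, and photosystem I subunit N (Os12t0189400-01) rose 2.62-fold. Among 73 loci of root ion uptake, 39 were called lower and 22 higher, with sums of 3585 and 3498 and 2404, 2329 and 2454. Nicotianamine synthase 1 (Os03t0307300-01) and nicotianamine aminotransferase A (Os02t0306401-00), of iron chelator synthesis, fell 14.6-fold and 18.8-fold, and nicotianamine synthase 3 (Os07t0689600-01) rose 3.77-fold. Seed storage loci rose 2 times (12.5%) and fell 4 times (25%) among 16, both below the 29.6% over all tested loci. Their sums were 320.1 and 309.6 in Nipponbare and 296, 275 and 271 in OsglHAT1-OE. Without Nipponbare replicate 1 or OsglHAT1-OE replicate 2, 2 seed storage loci fell, and without a filter on low values 7 did. Pollen loci rose 22 times and fell 8 times among 47, with sums of 3547 and 3404 and 4746, 4614 and 4699. Without Nipponbare replicate 1 or 2, 5 or 4 pollen loci fell. The part of these markers in the family results was not tested.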

How the data were processed

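Per the submitters' processing notes, reads were processed with Bowtie and edgeR on IRGSP-1.0, with versions not given in the sources used here. The authors deposited, per the file headers, 1 value per transcript model and library, named RPM; it is treated here as a signal. Every value was a whole multiple (tolerance 0.01) of what 1 read is worth, and all values, 100%, came out whole. Columns sum to 2411271 to 2690367, so reads appear to have been counted at each model they align to, and near-identical genes may share reads. Library totals, inferred from the value of 1 read, were 5207710 to 7667853 reads, and these and the floors cover counting error only.

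For each locus (first 12 characters of the identifier) the model with the highest mean was kept, and loci at 1 or more in at least 2 of 5 libraries were tested. Values were divided by median-ratio factors. The test was limma (3.58.1, R 4.3.3) with a trend on log2(value + 1), which understates changes of low loci, and Benjamini-Hochberg adjustment at 0.05; fold values in the text are ratios of mean rescaled values. A planned count test on whole reads was run as an alternative with edgeR 4.0.16 and DESeq2 1.42.0 on recovered counts, which are reads recovered from the deposited signal. The fit was tested on simulated data. Named genes were OsglHAT1, the 10 largest called log2 rises and falls without overlap, with a higher group mean of 10 or more and an informative annotation, the 8 largest rises and falls in value, up to 3 rises and 3 falls per list, and loci listed by identifier, of which the text gives a selection. Gene lists were matched on annotation text, and exclusions were extended after reading matched annotations. The comparison, its members and the lists were chosen with earlier results of these data known.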

Additional observations from a re-analysis of the deposited data

Results flagged for a closer look

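The libraries labelled GW6a-4.6 are outside the main comparison and enter the alternative that fitted all 8 libraries at once. In them the OsglHAT1 transcript had a mean deposited value of 2710 (2709.52 before rounding). It stood at 1.46 and 2.3 in Nipponbare and at 8.87 to 13.2 in OsglHAT1-OE. It was marked because a signal far above the control level stood in libraries outside the comparison. Whether the labels or columns of these libraries and of those labelled OsglHAT1-OE were exchanged cannot be told from the files, and this bears on what every OsglHAT1-OE value means.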

How the results depend on the processing

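Across the 17 alternatives, the counts over all loci and the OsglHAT1 change kept their direction and stayed within 1.5 times, except at a pseudocount of 5. There 3872 loci passed a log2 change of 1 or more instead of 6619, and the OsglHAT1 log2 change was 1.22 instead of 2.08 (limma adjusted p = 9.45e-09), since a larger pseudocount shrinks the change of low loci. Leaving out 1 library gave 7780 to 8690 higher loci, 7510 to 8653 lower loci, 6211 to 6697 at a log2 change of 1 or more, and an OsglHAT1 log2 change of 1.86 to 2.27. DESeq2 called 7765 loci higher and 7656 lower, and edgeR 8985 and 9050. Without scaling between libraries 7123 were higher and 9292 lower, and the share of calls that were higher ran from 43.4% (no scaling) to 52.5% (quantile normalization). The median of all loci moved by no more than 0.1 on the log2 scale. Same-numbered libraries deviated together at correlations of 0.061 and 0.019. The deviations of the 2 Nipponbare libraries mirror each other, so these values cannot tell whether the numbers pair libraries. With a replicate block 9089 loci were higher, 9041 lower and 6661 past a log2 change of 1. Of 3290 single-gene values under alternatives, 71 lost and 2 gained a call, and the cause was not tested. Of 2346 list counts, 39 moved by over 1.5 times, for instance the heat shock rises (35 instead of 54 without scaling). With 2 control libraries and values near the floor of 3 reads, changes of low loci are the least certain.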

Other observations

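Some loci were close to silent in one group, by a rule chosen after values were seen: at most 3 reads over all libraries of one group and a rescaled mean of 5 or more in the other. There were 49 such loci on in OsglHAT1-OE and 49 off. Of the 49 that were on, 24 had 0 reads in both Nipponbare libraries. No named function is carried by 28 of the 49 on and 25 of the 49 off, and the share over all tested loci was not counted. Chromosome 7 held 10 of these 49 (20.4%) and 7.53% of tested loci, and it also held 7 of the 49 that were off. It is named for its count of on loci, the largest of any chromosome, and the excess was not tested. A thioredoxin fold locus (Os12t0538600-00) had no Nipponbare read and values of 21.9, 18.6 and 16.4 in OsglHAT1-OE. An inner membrane transport homologue (Os01t0247700-01) had no Nipponbare read and 12.5, 13.9 and 17.1.

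Several of the 49 loci that were off code for proteins of desiccation and late embryogenesis. A homologue of the ABA-induced membrane protein PM 19 (Os05t0381400-01) held 133 and 128 in Nipponbare and 0, 0 and 0.498 in OsglHAT1-OE. A LEA repeat protein (Os03t0168100-01) held 119 and 98.3 in Nipponbare and 0, 0 and 0.166. Embryonic abundant protein 1 (Os05t0349800-01) held 32.5 and 33.6 in Nipponbare and 0, 0.378 and 0 in OsglHAT1-OE. On the deposited scale the GW6a-4.6 means of these 3 loci were 0.183, 0.365 and 0.979. Both lines share the Nipponbare controls, and OsglHAT1-OE was not tested against GW6a-4.6. Of the 49 loci that were on, 35 had a deposited GW6a-4.6 mean of 5 or more, and of the 49 that were off, 0 did, a count of levels and not of a test.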
